A study of Mus musculus with 36 samples.

Results

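Histone H3 trimethylated at lysine 9 (H3K9me3) was measured by ChIP-seq in mouse liver, and the values described here are those at the collagen genes. The genes were taken by symbol, as every autosomal gene named Col, a number, a and a number. All 42 autosomal collagen genes of the GENCODE M21 annotation had at least 1 bin of the mark in each of the 6 deposited comparisons. A bin is a stretch of about 500 bp inside a region of enrichment (a peak), and each is assigned to the gene with the nearest annotated start. Collagen genes held 474 of 114317 autosomal bins in the comparison of ages in control females and 641 of 147360 in control males. In the comparisons of maternal diet they held 595 of 133697 bins in 3-week females, 680 of 158810 in 3-week males, 464 of 109596 in 8-week females and 439 of 101386 in 8-week males. A gene had between 1 and 40 bins in the females' age comparison, with a median of 8, and between 2 and 56 in the males', with a median of 10.

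The animals were female and male offspring of dams fed either control chow or a Western-style diet that made them obese, given from before mating until the end of lactation. Livers were taken at 3 weeks of age, before weaning, or at 8 weeks, and offspring of both kinds of dam ate chow after weaning. All groups share a C57BL/6J background and were floxed littermate controls bred in house from a Reg3g fl/fl colony. The 32 ChIP libraries form 8 groups of 4 by sex, age and maternal diet, and 4 further libraries are unprecipitated input. The age comparisons set 4 control animals at 8 weeks against 4 at 3 weeks of the same sex, and the maternal obesity (MO) comparisons set 4 offspring of obese dams against 4 of control dams at 1 sex and age. The files used hold, for each bin, the log2 change, the mean level as read counts scaled to library size (CPM), the unadjusted p and the adjusted one (FDR, false discovery rate), and no value for a single animal. Standard errors given with ± are SE approximated from the change and its p-value. The source is whole liver, so a change in the mark within a cell type and a change in the mix of cell types cannot be told apart.

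Collagens are triple-helical proteins of the extracellular matrix. Fibrillar types give tissues their tensile strength, type IV forms the sheet of basement membranes, type VI builds beaded filaments around cells, and the remaining families decorate fibrils, span the plasma membrane or sit at the edge of basement membranes. In liver most fibrillar collagen is made by hepatic stellate cells and portal fibroblasts, basement membrane collagens also come from endothelial cells, and hepatocytes make the multiplexin Col18a1. H3K9me3 marks silent heterochromatin, where it holds down transposable elements and genes of other lineages.

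A few collagen bins carry much of what follows, and the genomic sequence of the middle or the end of each is shown from GRCm38, plus strand. The bin in intron 1 of Col23a1, a transmembrane collagen, was among the bins with the largest fall with age, and 300 bases of it (chr11:51295421-51295720) are shown with its 3 CpG sites in capitals, CpG being the dinucleotide that DNA methylation acts on. The bin upstream of Col28a1 was called higher at 8 weeks in both sexes, and 300 bases of it (chr6:8195197-8195496) are shown with its 11 CpG sites in capitals.
Col23a1 intron 1: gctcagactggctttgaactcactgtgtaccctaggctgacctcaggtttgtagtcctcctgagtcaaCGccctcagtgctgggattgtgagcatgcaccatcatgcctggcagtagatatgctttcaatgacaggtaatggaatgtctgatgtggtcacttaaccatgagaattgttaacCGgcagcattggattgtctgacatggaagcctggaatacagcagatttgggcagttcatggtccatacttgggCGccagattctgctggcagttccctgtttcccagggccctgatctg
Col28a1 upstream: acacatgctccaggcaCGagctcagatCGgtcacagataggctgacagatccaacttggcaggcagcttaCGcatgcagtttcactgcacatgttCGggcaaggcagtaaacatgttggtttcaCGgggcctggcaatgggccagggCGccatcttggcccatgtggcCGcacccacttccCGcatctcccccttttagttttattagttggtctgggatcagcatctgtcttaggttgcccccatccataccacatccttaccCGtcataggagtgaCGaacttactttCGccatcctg
Of the Col28a1 stretch 77% was repeat-masked, against 26.3% of the Col23a1 stretch. The next pair lies at Col4a3, in intron 43 (chr1:82703141-82703440), and far upstream of Col11a1 (chr3:113846892-113847191). Each was called higher at 8 weeks in 1 sex, and the capitals mark an identical run of 76 bases that the pair share.
Col4a3 intron 43: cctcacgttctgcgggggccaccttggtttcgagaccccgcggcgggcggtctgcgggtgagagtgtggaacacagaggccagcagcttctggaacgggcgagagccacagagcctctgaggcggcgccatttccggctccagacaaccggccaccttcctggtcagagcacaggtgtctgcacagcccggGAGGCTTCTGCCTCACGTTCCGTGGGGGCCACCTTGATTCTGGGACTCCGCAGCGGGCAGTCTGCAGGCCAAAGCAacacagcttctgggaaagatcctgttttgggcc
Col11a1 distal: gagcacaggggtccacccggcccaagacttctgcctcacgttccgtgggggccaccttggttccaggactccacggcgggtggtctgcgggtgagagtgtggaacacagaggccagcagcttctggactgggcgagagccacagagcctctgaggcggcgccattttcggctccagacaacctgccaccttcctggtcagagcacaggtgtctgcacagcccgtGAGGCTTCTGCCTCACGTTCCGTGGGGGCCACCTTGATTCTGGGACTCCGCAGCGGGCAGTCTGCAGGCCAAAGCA
These stretches were 96.7% and 100% repeat-masked, with 19 and 15 CpG sites and a GC content of 64.7% in each.

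H3K9me3 at collagen genes lay more over exons and less in intergenic space than the mark as a whole, as a description without a test. With age in females, exons held 17.5% of collagen bins, against 9.37% of all autosomal bins, and in males 17.2% against 8.83%. Introns held 35.7% and 37.0% of collagen bins, against 27.7% and 29.7% of all. Distal intergenic bins made up 25.3% and 27.9%, against 38% and 37.9%, and promoter bins (within 3 kb of an annotated start) 18.4% and 15.8%, against 21.6% and 20.3%. Collagen genes are cut into many short exons, and within gene bodies alone exons took 31.1% of collagen bins in females, against 23.2% for all genes, and 30.5% against 21.1% in males.

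**Figure D1:**
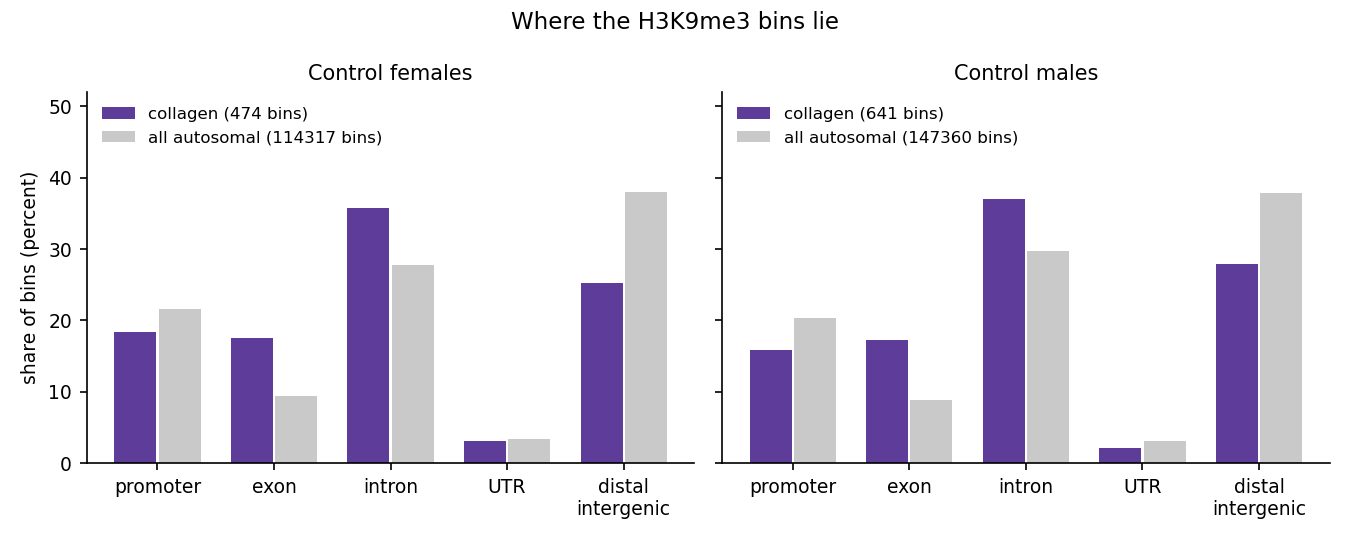
Share of autosomal bins (percent, vertical axis) annotated to each kind of region (horizontal axis), for collagen bins (purple) and for all bins (grey), in the age comparisons of females (left) and males (right). Exons hold 17.5% and 17.2% of collagen bins against 9.37% and 8.83% of all bins, and distal intergenic regions hold 25.3% and 27.9% against 38% and 37.9%.

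The regions of enrichment over collagen genes in the age comparisons were long. The median peak that held a collagen bin spanned 1.31 kb (females) and 1.07 kb (males), where the genome had 0.839 and 0.809 kb, and 11.2% and 8.58% of collagen bins lay in peaks longer than 5 kb, against 5.53% and 4.39%. The longest in females was at Col16a1, a fibril-associated collagen, with 29.6 kb, against 28.6 kb in males. The longest in males was at Col2a1, the cartilage fibril collagen, with 32.6 kb, against 22.2 kb in females, and Col7a1, which forms the anchoring fibrils of skin, 17.9 and 19.4 kb. A peak of 20.1 kb in females and 14.5 kb in males lay at Col26a1, and Col1a1, the chain of type I collagen that liver scar is rich in, had peaks of 12.2 and 14.5 kb. The level within these regions was ordinary. In females the median was 6.01 CPM for collagen bins and 6.25 for all bins, in males 4.19 and 4.29, and no collagen bin of the age comparisons exceeded 12.8 CPM in females or 10.4 in males. Levels are not compared between the sexes, whose tables hold different regions.

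From 3 to 8 weeks the mark changed at a small minority of collagen bins in both sexes. In control females 10 of 474 collagen bins (2.11%) passed an FDR of 0.05, against 2.08% of all autosomal bins. These were 4 bins higher at 8 weeks (0.844%, against 0.812% of all) and 6 lower (1.27%, against 1.27% of all), in 10 different genes. In control males 21 of 641 bins (3.28%) passed, against 4.36% of all, with 6 higher (0.936%, against 2.36% of all) and 15 lower (2.34%, against 2% of all), in 16 genes. Beside the genome's shares, the collagen shares were near equal in females, and in males that of higher calls was smaller. Of the 42 genes, 20 had a called bin in at least 1 sex and 6 in both (Col8a2, Col9a1, Col18a1, Col23a1, Col26a1 and Col28a1), with only Col28a1 called at the same stretch in both. The called bins assigned to Col9a1 lie by position inside Col19a1. Such gene counts are not given here for other genes. At an unadjusted p under 0.05 there were 77 collagen bins in females (16.2%, against 16.5% of all) and 130 in males (20.3%, against 21.7%). Collagen bins had a median log2 change of -0.10 (females) and -0.16 (males), where the genome had -0.05 in either sex, and 42.0% and 43.4% of collagen bins were higher at 8 weeks, against 46.7% and 47.4%. The gene's median bin was lower at 8 weeks for 27 of 42 collagen genes in females and 23 of 42 in males.

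The direction of these changes went with the level of the bin, in collagen genes and throughout the genome. All 4 collagen bins called higher in females, and all 6 in males, lay above their table's median CPM, whereas 0 of 6 called lower in females and 3 of 15 in males did. Over all autosomal bins 86% of those called higher in females and 89.4% in males were above the median, and 22.8% and 15.5% of those called lower. With bins sorted by CPM into 10 groups of equal size, the median change ran, from the lowest group to the highest, from -0.30 to 0.29 in females and from -0.48 to 0.45 in males over all bins, and from -0.39 to 0.23 and -0.68 to 0.50 over collagen bins. A further reading took out GC content and level together, by subtracting the median change of all bins in the same of 10 GC groups and 10 CPM groups. The collagen median was then 0.01 in females, against -0.01 for all bins, and -0.06 in males, against 0.00. After that subtraction 2 collagen bins were called in females, 1 in each direction, and 7 in males, 3 higher and 4 lower. In females these were at Col9a1 and, 3.01 kb from its start, Col23a1. In males 5 of the 7 were called before too, at Col6a3, Col14a1, Col17a1, Col18a1 and, 5.4 kb from its start, Col23a1. The other collagen calls were lost. The share of all bins called after the subtraction is not given here, so the drop is not read as particular to collagen genes. The parts of GC content and of level in this drop were not separated, and CPM is given with many of the calls below.

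**Figure D2:**
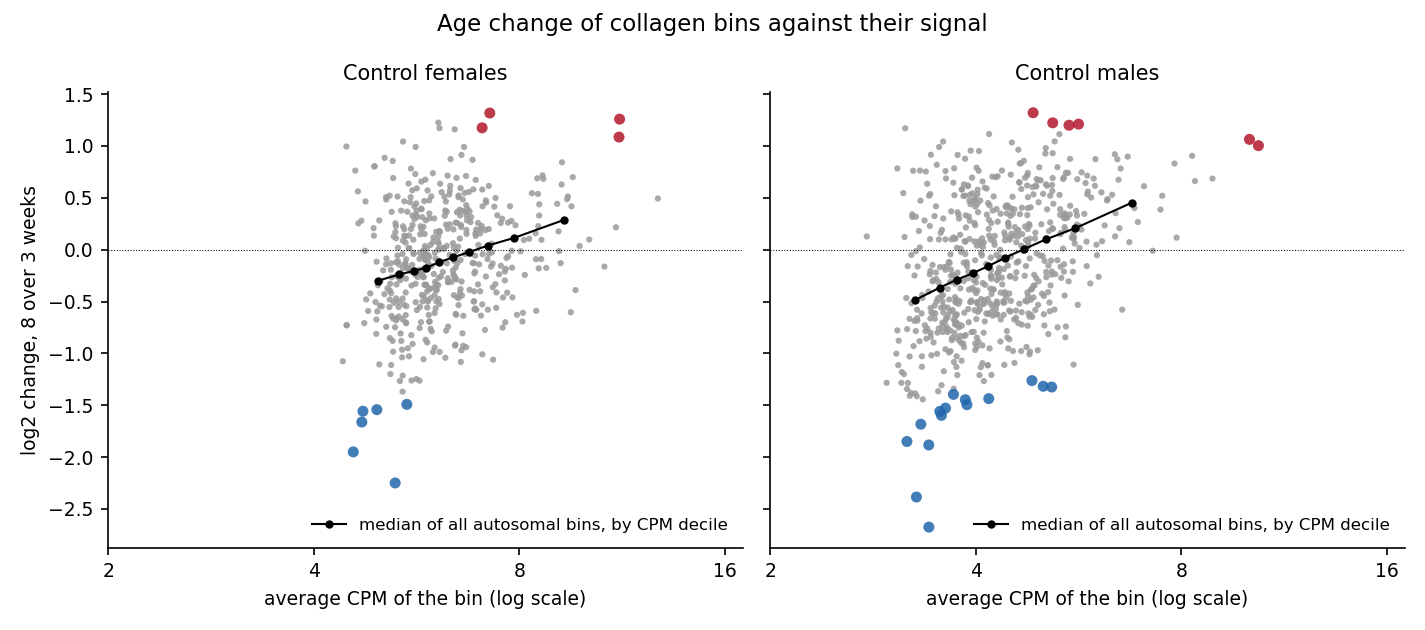
Log2 change from 3 to 8 weeks (vertical axis) of each collagen bin against its mean CPM (horizontal axis, log scale), in females (left) and males (right), with bins called higher in red, called lower in blue and others in grey. The black line joins the medians of all autosomal bins in 10 groups by CPM and climbs from -0.30 to 0.29 in females and from -0.48 to 0.45 in males, with the red bins to the right and most blue bins to the left.

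By class, the share of bins called with age ran from 0% to 6.90% in females and from 0% to 4.92% in males, on 1 to 5 calls in each class that had any, and is read against 2.08% and 4.36% of all bins. Among the fibrillar collagens, 2 of 120 bins in females were called, both higher at 8 weeks, and 3 of 149 in males, 1 higher and 2 lower. Col5a3, a chain of type V collagen that helps to set fibril diameter, was higher by 1.32 ± 0.35 in females at the bin that covers its start (chr9:20814847-20815347, 7.24 CPM, FDR 0.0170), within a peak of 10.4 kb. Col11a1, a type XI chain best known from cartilage, was higher by 1.09 ± 0.29 in females at the repeat-rich bin shown above, at -183 kb from its start (chr3:113846691-113847191, 11.2 CPM, FDR 0.0158). In males the bin at -74.3 kb from the start of Col3a1, the type III collagen of liver and vessel walls, was higher by 1.21 ± 0.35 (chr1:45236946-45237218, 5.66 CPM, FDR 0.0256), and 87.9% of it was repeat-masked. Col27a1, a fibrillar collagen of growing cartilage, was lower by 1.53 ± 0.45 in males at a bin in intron 28 of 60 (FDR 0.0278), and Col5a1, the main type V chain, had a lower bin in an intron at -1.40 (FDR 0.0390). After the GC and CPM subtraction above, Col5a3 was at 0.98, Col11a1 at 0.68, Col3a1 at 0.75 and Col27a1 at -1.22, and none was called. The class median was -0.10 in females and -0.16 in males.

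Among the collagens that make up most of the liver's fibrils, Col1a1 and Col1a2 had 0 called bins in either sex. Col3a1 and Col5a1 had a called bin in males, given above. The strongest bins of these genes are read next. The bin of highest CPM at Col1a1 was a different stretch upstream of the gene in each sex, at -0.46 ± 0.37 in females and, at the other stretch, 1.04 ± 0.35 in males (FDR 0.0745), where females had 0.48. At Col1a2, its partner chain, the strongest bin was the same intergenic stretch in both sexes, at -31.4 kb from its start. It changed by 0.04 in females and 0.39 in males. At Col3a1 the females' strongest bin, intergenic at -187 kb from its start, changed by -0.39 in females and -0.16 in males. The males' strongest bin, intergenic at -58.45 kb, changed by 0.61 in males and 0.87 in females. Col5a2 had 1 shared intergenic stretch, at -129 kb from its start, with changes of -0.16 and -0.01. Col5a1 had different ones, an intergenic bin at -0.46 in females and an intron bin at -0.26 in males. None of these strongest bins passed the FDR.

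Type IV collagen genes stand head to head in pairs that share a promoter region, with Col4a1 beside Col4a2 and Col4a3 beside Col4a4. In females 0 of 51 type IV bins were called. In males 3 of 72 were called, and the 2 higher ones are at opposite kinds of place. One lies inside Col4a1, 34 bp from its nearest annotated start and beside the start of Col4a2, both widespread basement membrane chains. It was higher by 1.22 ± 0.36 (chr8:11312155-11312655, 5.18 CPM, FDR 0.0284) within a peak of 7.10 kb. The other is the bin in intron 43 of Col4a3, a chain of the kidney filter's basement membrane, higher by 1.06 ± 0.29 (chr1:82702940-82703440, 10.1 CPM, FDR 0.0144). A bin 38.1 kb from the nearest Col4a1 start was lower by 1.85 ± 0.51 (FDR 0.0188). After the GC and CPM subtraction above, these bins were at 0.75, 0.54 and -1.20 in the same order, and none was called. The strongest bins of Col4a1 and Col4a2 were different stretches in each sex and none was called. Those of Col4a1 were at 0.68 in females and 0.87 in males, and those of Col4a2 at -0.63 in females and -0.16 in males, with 0.07 in females at the males' Col4a2 stretch. Col4a2 as a gene had a median of -0.46 over 19 bins in females and -0.46 over 22 in males. The nearest miss in females was a Col4a2 intron bin at -1.37 (FDR 0.0527). Type IV medians were -0.17 in females and -0.17 in males.

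The network collagens of types VIII and X, which form hexagonal lattices beneath cells, had 1 called bin in each sex, both lower at 8 weeks and both at Col8a2. In females it lay in intron 2 of 3 (chr4:126304274-126304680, 4.95 CPM) and was lower by 1.54 ± 0.46 (FDR 0.0400). In males it lay at -535 bp from an annotated start (chr4:126285758-126286258), was lower by 1.88 ± 0.49 (FDR 0.00967) and was 80.6% repeat-masked. These Col8a2 bins do not overlap. The class median was 0.33 over 24 bins in males, of which 14 were higher, and -0.02 over 20 in females.

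The beaded-filament genes of type VI, which form a fine network around cells in most tissues, had lower calls only, 1 of 66 bins in females (1.52%, against 1.27% of all bins called lower) and 3 of 103 in males (2.91%, against 2%). Col6a6 in females was lower by 1.95 ± 0.49 at a promoter bin (chr9:105809441-105809941, 4.57 CPM, FDR 0.0087). The lowest value of any collagen bin was at Col6a3 in males, where a bin 34.9 kb from the nearest start was lower by 2.68 ± 0.52 (chr1:90737864-90738364, 3.41 CPM, FDR 0.000113). Both remaining calls in males were intergenic bins nearest to Col6a1, at -1.60 ± 0.45 (43.5 kb away, FDR 0.0196) and -1.56 ± 0.48 (11.8 kb away, FDR 0.0387). The strongest bins of these genes by level were not called. At Col6a2 it was a shared intergenic stretch about -25 kb from its start, which changed by -0.09 in females and 0.67 in males. At Col6a1 it was an exon in females (0.61) and an intergenic stretch in males (0.55), which was at -0.31 in females. At Col6a3 it was in exon 5 in females (0.54, with 0.33 in males) and in exon 4 in males (0.69, with -0.04 in females). The class medians, 0.07 in females and -0.01 in males, were close to 0.

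The fibril-associated collagens (FACIT), which bind to the surface of fibrils, had 1 of 56 bins called in females and 3 of 61 in males. A bin assigned to Col9a1, a cartilage chain of type IX, was higher in females by 1.17 ± 0.35 (chr1:24282348-24282654, FDR 0.0399), and a different bin of the gene in males by 1.20 ± 0.35 (chr1:24264479-24264979, FDR 0.0286). By position both bins lie inside the neighbouring Col19a1 and past the end of Col9a1, since assignment is by the nearest start. Col14a1, made by mesenchymal cells around fibrils, was higher in males by 1.32 ± 0.37 in intron 14 of 47 (chr15:55395971-55396312, 4.85 CPM, FDR 0.0202), and Col12a1, its close relative, was lower by 1.45 ± 0.43 in intron 25 of 65 (FDR 0.0347). The strongest Col14a1 bin, the same stretch over its promoter in both sexes, was not called, at -0.34 in females and 0.23 in males. Without a call, all 3 bins of Col9a2 were lower in females, with a median of -1.06, and in males 2 of 3 were lower, with a median of -0.79. Col16a1, under long peaks in both sexes, had positive medians of 0.35 in females and 0.68 in males and 0 called bins.

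Most lower calls of the transmembrane collagens were in Col23a1, which is cut from the cell surface and is little known in liver. It had 39 bins in females, 1 fewer than Col5a1, and 56 in males, the most of any collagen gene, all within its gene body of 294 kb. The bin in intron 1 that lies 3.01 kb from the gene's start had the largest fall of any collagen bin in females, at -2.25 ± 0.46 (chr11:51292934-51293434, 5.26 CPM, FDR 0.00058). In males 4 Col23a1 bins were called, all lower. One lies 5.4 kb from the start in intron 1, at -2.39 ± 0.53 (chr11:51295321-51295821, 3.27 CPM, FDR 0.00137), and is the one whose sequence is given above, while another in the same intron was at -1.68 ± 0.51 (FDR 0.0354). A bin in intron 2 was at -1.26 ± 0.38 (chr11:51403296-51403692, FDR 0.0318), and a bin near an internal start at -1.50 ± 0.43 (FDR 0.0261). The gene did not fall along its whole length: 25 of 39 bins were lower in females, with a median of -0.20, and 34 of 56 in males, with a median of -0.28, and single bins reached 1.23 in females and 0.88 in males. Col17a1, the hemidesmosome collagen of epithelia, had the class's other call, in males, at -1.32 ± 0.37 in intron 1 of 53 (FDR 0.0186).

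The multiplexins, Col15a1 and Col18a1, carry an endostatin-like domain at their end and lie where basement membranes meet the stroma. They had the lowest medians of the classes with more than 3 bins. Over 43 bins in females the median change was -0.31, and over 62 in males it was -0.49, and 30.2% and 21.0% of bins were higher at 8 weeks. At Col18a1, which hepatocytes express, the median was -0.36 in females and -0.70 in males. An exon 20 bin of Col18a1 was lower in females by 1.66 ± 0.47 (chr10:77071376-77071876, 4.70 CPM, FDR 0.0294), and an intron 2 bin was lower in males by 1.32 ± 0.39 (FDR 0.0286). The Col18a1 bin of highest level was not called in either sex and differed between them, an intron 3 bin at 0.30 in females and an intergenic bin at 0.12 in males, which was at -0.38 in females. At Col15a1, found around vessels and sinusoids, the medians were -0.09 and -0.44, and 1 bin was called, in females, 2.31 kb from a start inside the gene (chr4:47230540-47230961, -1.49 ± 0.42, FDR 0.0256). The bin 0.214 kb from the annotated start of Col15a1 in females, and its counterpart in males, pointed the other way, at 0.99 ± 0.36 in females (FDR 0.137) and 0.92 ± 0.32 in males (FDR 0.0857), neither of which passed. The strongest Col15a1 bin in females, in an intron, was at -0.09 and at 0.70 in males. The medians are descriptions and were not tested.

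The remaining genes, Col26a1 and Col28a1, had calls in opposite directions. Col28a1, a collagen with von Willebrand factor A domains that is known from peripheral nerve, was higher in females by 1.26 ± 0.28 (chr6:8195097-8195597, 11.2 CPM, FDR 0.00157) and in males by 1.00 ± 0.29 (chr6:8195045-8195545, 10.4 CPM, FDR 0.0228), at the upstream bin shown above. Col26a1 was lower in females by 1.56 ± 0.46 in intron 3 of 12 (chr5:136790792-136791292, 4.72 CPM, FDR 0.0397). In males another intron bin of Col26a1 was at -1.44 ± 0.43 (FDR 0.0358), which falls outside the rule for naming, as do the Col5a1 bin and the second Col6a1 bin in males, and is given so that each called bin is named. The class "anchoring fibril", Col7a1, had 3 bins in females and 2 in males, with medians of -0.52 and -0.65 and 0 calls.

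**Figure D3:**
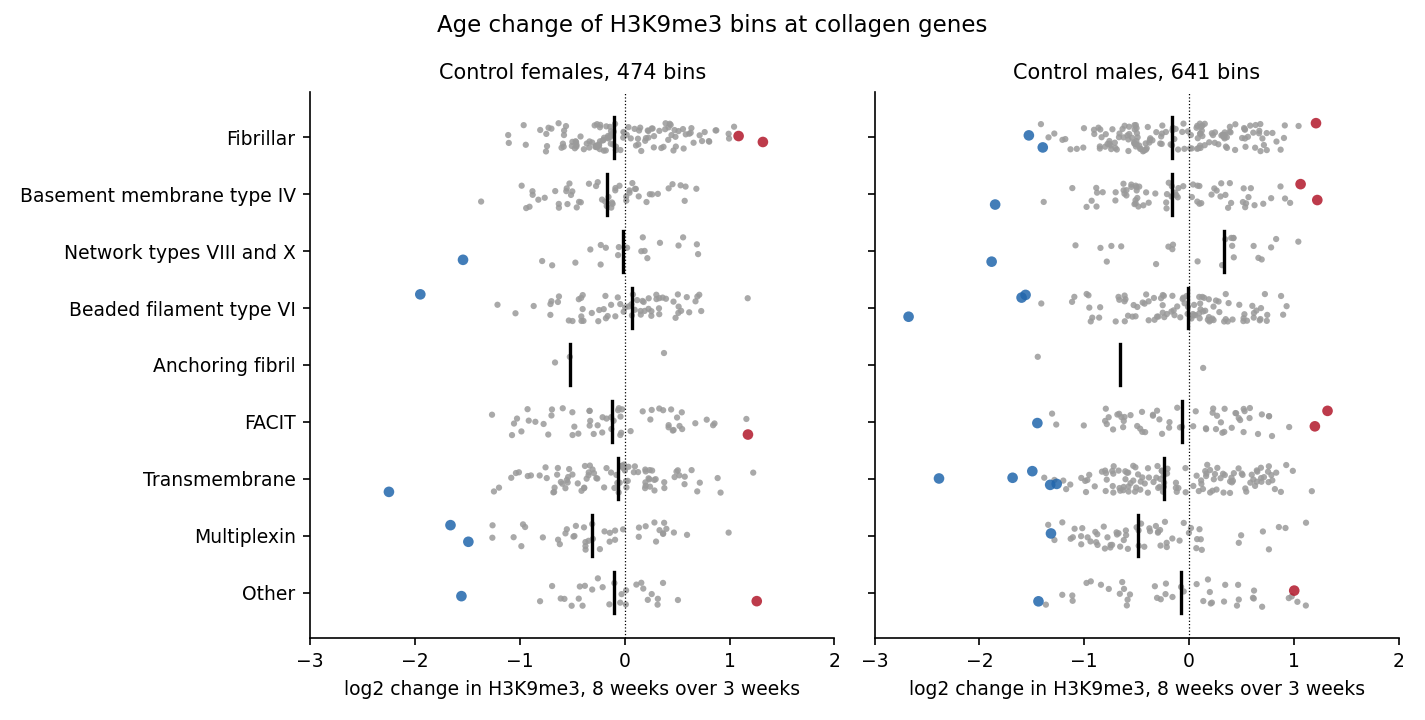
Log2 change from 3 to 8 weeks (horizontal axis) of every collagen bin, arranged by collagen class (vertical axis), in 474 bins of females and 641 of males, with called bins (FDR under 0.05) in red where higher and blue where lower, and the class median as a black bar. The multiplexins have medians of -0.31 and -0.49, and the called bins are few in every class.

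The 22 genes without a call in either sex range from cartilage and nerve collagens to the main collagens of liver. Col13a1, a transmembrane collagen of muscle and nerve junctions, had 33 bins in females with a median of 0.00 and 45 in males with a median of -0.24. Col1a1 had 17 bins with a median of 0.20 in females and 21 with a median of -0.37 in males. Col6a2 had medians of -0.18 over 7 bins and -0.53 over 12. The fibril-associated Col20a1 and Col22a1 had medians of -0.06 and 0.06 over 11 bins each in females, and of -0.59 over 8 and -0.13 over 12 in males. Col25a1, a transmembrane collagen of neurons, was near 0 in females (-0.02 over 5 bins) and positive in males (0.59 over 12). Col2a1, under a long peak, had -0.56 in females and 0.08 in males over 5 bins each. Col8a1, partner of Col8a2 in type VIII collagen, had 0.16 over 11 bins and 0.33 over 12. The minor fibrillar chains Col24a1 and Col11a2, with 2 to 5 bins each, had -0.10 and 0.85 in females and 0.67 and 0.27 in males. Col6a4 and Col6a5, chains of type VI, were near 0 in both sexes, at 0.09 and -0.07 in females and 0.12 and -0.13 in males. Col4a4, the partner of Col4a3, had -0.26 over 3 bins and 0.24 over 7. Col9a3, a type IX chain, had -0.06 over 3 and -0.45 over 7. Col19a1 had -0.15 over 8 and 0.41 over 7, without the called bins inside it that are assigned to Col9a1. Col10a1, the collagen of hypertrophic cartilage, had -0.23 at its 1 bin in females and 0.78 over 3 in males. The medians of a gene's bins are descriptions without a test, and the smallest FDR among all 22 genes was 0.053 in females and 0.059 in males.

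The FDR threshold cut through a continuum. Just inside it in females were Col9a1 at 0.0399 and Col8a2 at 0.0400, and just outside were Col4a2 at 0.0527 and Col15a1 at 0.0604. In males Col6a1 at 0.0387 and Col5a1 at 0.0390 were just inside, and Col26a1 at 0.0553 and a second Col28a1 bin, with a change of 1.11, at 0.0566 just outside.

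**Figure D4:**
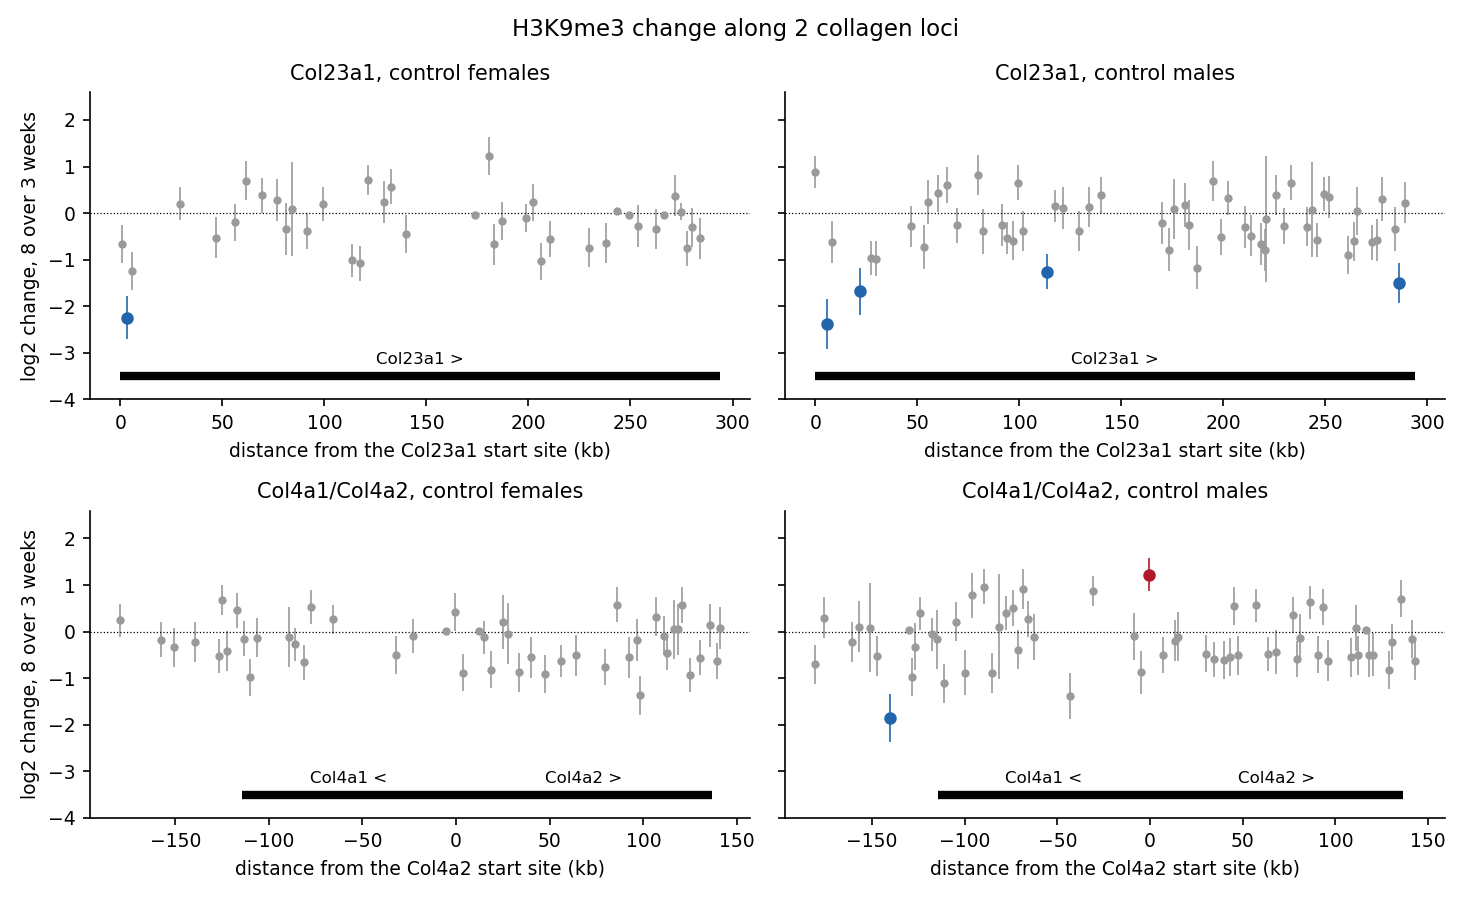
Log2 change with age of each bin (vertical axis, bars are the approximate SE) against distance in kb from the start of Col23a1 (top) or Col4a2 (bottom), in females (left) and males (right), with called bins in blue (lower) or red (higher) and black bars for the genes. In Col23a1 the called bins lie near the start and further in, at -2.25 in females and down to -2.39 in males. The Col4a1 bin beside the start of Col4a2 is at 1.22 in males.

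The same stretch of a collagen gene could be set side by side in females and males where bins of both tables overlapped by at least 50% of each. This gave 190 pairs in 37 genes, of 54208 pairs over all autosomes. The change had the same sign in 122 pairs (64.2%), against 64.5% over all pairs, and the correlation across pairs was 0.31 by Spearman's rho, against 0.41 over all pairs, and pairs of 1 gene are not independent of each other. In these pairs 2 bins were called in females and 4 in males, and the only one called in both was the Col28a1 upstream bin (1.26 and 1.00). The males' minus the females' change at Col28a1 was -0.26, with a 95% interval from -1.04 to 0.52.

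Col11a1, called in females, had 0.91 in males (FDR 0.059), and the difference of -0.18 had an interval from -0.99 to 0.63. Col23a1 in intron 1 had -1.25 in females (FDR 0.069) and -2.39 in males, a difference of -1.14 with an interval from -2.44 to 0.17. In intron 2 Col23a1 had -1.01 and -1.26. The Col4a3 intron bin had 0.10 in females and 1.06 in males, and the difference of 0.97 had an interval from 0.09 to 1.84 and an adjusted p of 0.674. The smallest adjusted p for a difference between the sexes in a collagen pair was 0.470, at exon 29 of Col5a1, with 1.04 in females and -0.64 in males. Of 174 collagen pairs with a usable standard error, 0 had a sex difference at an adjusted p under 0.05 and 12 had an unadjusted p under 0.05 (6.90%, against 6.66% of all pairs), and over 48746 pairs of all genes the share at the adjusted threshold was 0%. A sex difference in the age change of collagen bins was not detectable at this precision.

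**Figure D5:**
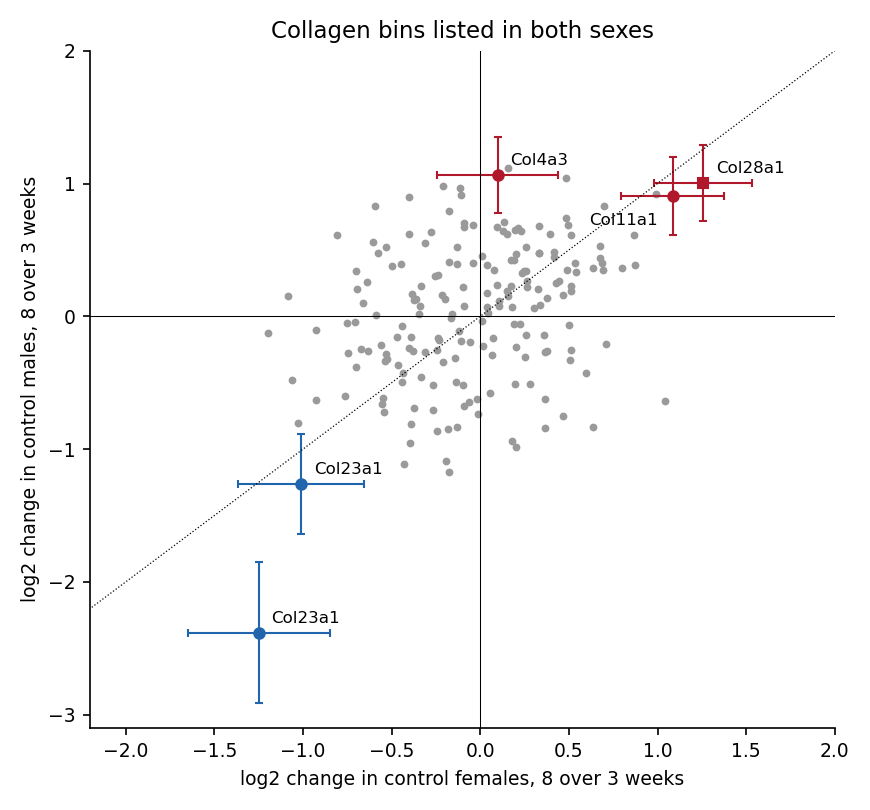
Log2 change from 3 to 8 weeks in females (horizontal axis) and in males (vertical axis) for 190 pairs of collagen bins that overlap between the sexes' tables. Coloured points are called (red higher, blue lower, circle in 1 sex, square in both) and carry bars of 1 approximate SE, grey points are not called, the dotted line marks equal change, and Col28a1 is the only square.

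Bins called higher were often repeat DNA, at collagen genes as over all autosomes. More than 50% of the bin was repeat-masked in 2 of 4 higher-called bins in females and 4 of 6 in males, and in 0 of 6 and 2 of 15 lower-called bins. Among all autosomal bins called higher this held for 41.1% (females) and 43.4% (males), and among those called lower for 18.6% and 17.4%. Exact sequence was compared between called collagen bins that do not overlap, and of 464 such pairs 4, each of different genes, shared a run of 18 bases or more. Col11a1 and Col4a3 share the 76 bases in capitals above. Col14a1 and Col3a1 share 68 bases, on opposite strands, and the run below is written as it stands at Col14a1, with all of it in capitals since the whole run is shared. All 4 of these bins were called higher, in 1 sex each, and Col11a1 shares with both Col14a1 and Col3a1 the shorter run of 18 bases.
Col14a1 and Col3a1 shared run: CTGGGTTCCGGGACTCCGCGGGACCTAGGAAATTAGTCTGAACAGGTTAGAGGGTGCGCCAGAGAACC
Col11a1, Col14a1 and Col3a1 shared run: GGTTCCGGGACTCCGCGG

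The shorter run was then looked for, exactly and on both strands, in every autosomal bin, as a search chosen after these values were seen. It was in 289 bins in females (0.253%), of which 88.2% were higher at 8 weeks, with a median of 0.44, 17 called higher (5.88%, against 0.812% of all bins) and 0 called lower. In males it was in 342 bins (0.232%), of which 95% were higher, with a median of 0.66, 74 called higher (21.6%, against 2.36%) and 0 called lower. Bins that are more than 50% repeat-masked had smaller medians of 0.10 in females and 0.15 in males, and collagen bins of that kind -0.02 over 52 bins and 0.10 over 70. The run's bins also had high levels, with a median of 8.85 CPM (females) and 6.70 CPM (males), where all bins had 6.25 and 4.29. Reads from near-identical copies may be placed at any of them, so a change at Col3a1, Col4a3, Col11a1 or Col14a1 is uncertain as to which copy it comes from, and its part in these calls was not tested.

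Promoter sequences of collagen genes were rich in CpG and GC boxes. RefSeq promoter windows of 300 bases (GRCm38.p6) matched 33 of the 42 genes, with 36 windows, and had a median of 12 CpG sites, against 7 over all 32851 windows. The GC box GGGCGG, or CCGCCC on the other strand, was in 21 of the 36 (58.3%), against 35.7% of all windows. H3K9me3 bins overlapped the window of 9 collagen genes in females, with 5 of the 9 bins higher at 8 weeks, and of 12 in males, with 7 of 12 higher. In each sex 1 was called, Col5a3 in females and the Col4a2 window, which shares its region with Col4a1, in males. Both windows are shown in the gene's direction with their 3 GC boxes in capitals, Col5a3 from the minus strand (chr9:20815018-20815317) and Col4a2 from the plus strand (chr8:11312555-11312854).
Col5a3 promoter: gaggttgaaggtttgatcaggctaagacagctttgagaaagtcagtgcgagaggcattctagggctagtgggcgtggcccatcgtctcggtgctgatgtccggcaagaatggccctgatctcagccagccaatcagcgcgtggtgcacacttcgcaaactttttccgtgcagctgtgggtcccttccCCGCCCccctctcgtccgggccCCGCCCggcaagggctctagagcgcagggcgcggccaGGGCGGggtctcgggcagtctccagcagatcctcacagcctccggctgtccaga
Col4a2 promoter: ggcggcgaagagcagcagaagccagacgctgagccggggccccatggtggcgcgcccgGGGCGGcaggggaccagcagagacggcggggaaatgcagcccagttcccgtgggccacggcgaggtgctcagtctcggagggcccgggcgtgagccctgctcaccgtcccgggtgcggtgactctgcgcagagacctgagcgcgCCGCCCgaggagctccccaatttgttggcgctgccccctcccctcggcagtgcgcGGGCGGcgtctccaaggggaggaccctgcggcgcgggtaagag
They hold 20 and 33 CpG sites. Other windows under the mark had smaller changes that did not pass the FDR, such as 0.76 ± 0.49 at Col5a1 in females, 0.74 ± 0.35 at Col1a2 in males and -0.95 ± 0.42 at Col13a1 in males.

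With maternal obesity 0 collagen bins passed an FDR of 0.05 by the authors' edgeR test, in either sex or at either age. Unadjusted p-values under 0.05 were found at 50 collagen bins in 3-week females (8.4%, against 7.74% of all bins), 68 in 3-week males (10.0%, against 8.83%), 36 in 8-week females (7.76%, against 7.04%) and 25 in 8-week males (5.69%, against 6.51%). The collagen medians were 0.02, -0.04, -0.01 and -0.03 in the same order. At an unadjusted p under 0.001 there were 1 collagen bin in 3-week females (0.168%, against 0.212% of all), 4 in 3-week males (0.588%, against 0.278%), 2 in 8-week females (0.431%, against 0.168%) and 1 in 8-week males (0.228%, against 0.112%).

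The bins with the smallest p-values for maternal diet are given as candidates that failed the correction. In 3-week females Col15a1 was at -1.41 ± 0.40 in exon 32 of 39 (chr4:47300192-47300692, unadjusted p 0.000489, FDR 0.675 by edgeR). In 3-week males the 3′ UTR bin of Col4a1 was at 1.51 ± 0.40 (chr8:11199400-11199900, unadjusted p 0.000173 by edgeR), an exon 8 bin of Col26a1 at -1.75 ± 0.47, an intron 2 bin of Col18a1 at -1.22 ± 0.34 and an intron 1 bin of Col17a1 at -1.22. The smallest p for any collagen bin was in 8-week females, at intron 3 of Col26a1, with 1.48 ± 0.36 (chr5:136829386-136829886, unadjusted p 3.65e-05, FDR 0.666 by edgeR), and there an exon 7 bin of Col6a3 was at 1.30 ± 0.39. In 8-week males Col16a1 was at -1.44 ± 0.42 in a promoter bin within its peak of 28.6 kb (unadjusted p 0.000676 by edgeR).

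Where a bin was in both MO tables of a sex, its 2 changes were compared. No collagen bin differed between 8 and 3 weeks at an adjusted p under 0.05, by a normal approximation from the 2 changes and their errors: 0 of 236 pairs in females and 0 of 223 in males, as for the 0% of all 61664 and 59458 pairs. At an unadjusted p under 0.05 there were 20 collagen pairs in females (8.47%, against 6.03% of all pairs) and 12 in males (5.38%, against 6.35%). The smallest unadjusted p in females was at the Col5a3 promoter, where the MO change was 1.10 at 3 weeks and -0.54 at 8 weeks, a difference of -1.64 (adjusted p 0.571 by the same approximation). In males it was at intron 2 of Col18a1, with -1.22 at 3 weeks and 0.81 at 8 weeks, a difference of 2.04 (adjusted p 0.414). The bins of highest level at the 13 main collagens of liver matrix, some of them distal intergenic, were 52 over the MO comparisons. They ran from -0.94 to 0.85, with a median size of 0.24. Of the 52, 5 had an unadjusted p under 0.05 by edgeR, where 6.51% to 8.83% of all bins had one. These were Col18a1 at 0.82 in 3-week females and 0.85 in 8-week females, Col4a1 at -0.94 in 8-week females, and Col15a1 at -0.91 and Col5a1 at -0.71 in 8-week males, of which 0 passed the FDR by edgeR. At Col1a1 these bins, which differ in place between comparisons, were at 0.22 in 3-week females, 0.24 in 3-week males, -0.42 in 8-week females and 0.05 in 8-week males.

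Several named bins recur across comparisons that use the same control animals, so their values are only set side by side. The Col5a3 promoter bin in females was at 1.32 with age and at 1.10 with MO at 3 weeks. The Col17a1 intron bin in males was at -1.32 with age and -1.22 with MO at 3 weeks, and the Col15a1 bin called with age in females (-1.49) was at -1.16 with MO at 3 weeks. The Col4a1 bin beside the start of Col4a2 in males was at 1.22 with age and -1.11 with MO at 8 weeks. In each case the same 4 control livers enter both differences, and no relation is drawn between them.

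Genes that make, bind and cut collagen are read against the 2.08% of all bins called with age in females and 4.36% in males. Enzymes and chaperones of collagen synthesis and crosslinking had 4 of 156 bins called in females (2.56%) and 9 of 213 in males (4.23%), near those shares. Colgalt1, which adds galactose to collagen, was lower within 3 kb of a start in both sexes, by 1.41 in females and 1.98 in males. Serpinh1, the collagen chaperone of the endoplasmic reticulum, was lower in males at 2 distal intergenic bins, by 1.54 and 1.62. Bmp1, the procollagen C-proteinase, was lower in males by 2.03, also at a distal intergenic bin. Adamts14, a procollagen N-proteinase, was at -1.74 in males in an intron and P4ha2, a prolyl hydroxylase subunit, at -1.65 in a promoter bin. Pcolce, the enhancer of Bmp1, was higher in females by 1.57 at its start, and Adamts3, another N-proteinase, in males by 1.37. Adamts2, of the same family, had calls in both directions, with a 3′ UTR bin at 1.18 in females and 1.54 in males and intron bins at -1.41 and -1.58. Collagen receptors had 2 of 75 bins called in females (2.67%), Gp6 at 1.18 and Itga2 at -1.29, and 3 of 89 in males (3.37%), Itga11 at -2.04, Ddr2 at 1.72 and Itgb1 at 1.36. Collagen-cutting proteases had 0 of 27 called in females, where 2 had an unadjusted p under 0.05, and 2 of 26 in males (7.69%), the promoters of Mmp9 at 1.29 and Mmp14 at 1.16. Laminins, the other main component of basement membranes, had 2 of 119 called in females (1.68%), both lower, and 7 of 151 in males (4.64%), 4 higher and 3 lower. With MO these lists had 0 bins at an FDR of 0.05 by edgeR. At an unadjusted p under 0.05 by edgeR, where all bins had 7.74% in 3-week females, 8.83% in 3-week males, 7.04% in 8-week females and 6.51% in 8-week males, synthesis and crosslinking genes had in the same order 23 (12.2%), 17 (7.46%), 15 (9.8%) and 15 (10.6%) bins. Receptors had 9 (10.5%), 8 (8%), 5 (7.04%) and 4 (6.67%), proteases 4 (13.3%), 3 (9.38%), 2 (7.41%) and 3 (13%), and laminins 10 (7.87%), 16 (10.4%), 7 (6.19%) and 6 (5.56%).

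Marker genes of the liver's cell types were read in the same tables. These counts too are read against 2.08% of all bins in females and 4.36% in males. Of the bins at hepatocyte markers 0 of 17 were called with age in females and 1 of 19 in males. Stellate cell markers, the main collagen producers, had 0 of 33 and 0 of 42, endothelial markers 1 of 50 and 3 of 81, all lower at 8 weeks, Kupffer cell markers 0 of 14 and 0 of 19, and cholangiocyte markers 0 of 23 and 0 of 26. At an unadjusted p under 0.05 by edgeR, a share of 16.5% over all bins in females and 21.7% in males, there were 2 (11.8%) and 1 (5.26%) hepatocyte marker bins, 7 (21.2%) and 3 (7.14%) of stellate cells, 4 (8%) and 20 (24.7%) endothelial, 2 (14.3%) and 2 (10.5%) of Kupffer cells, and 5 (21.7%) and 4 (15.4%) of cholangiocytes. These are values of a silencing mark and not of expression, and their part in the collagen results was not tested.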

How the data were processed

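H3K9me3 ChIP was sequenced in 8 groups of 4 livers, with 4 inputs. The authors aligned reads with BWA to mm10 (GRCm38), called broad peaks with MACS2, dropped the blacklist, formed a consensus of peaks seen in most replicates, merged these per sex, split long peaks into 500-bp bins, counted reads with featureCounts, tested groups with edgeR's exact test and annotated bins with ChIPseeker. Mapping-quality filters for ChIP reads are not given in the sources used here. The authors deposited, for each comparison, a log2 change and a log2 mean CPM per bin with a p-value and an FDR (Benjamini-Hochberg over all bins). Values per library and the depth of each library were not analysed here, and no interval from counts is given. Each table holds 1 bin per peak, by a selection that is not stated.

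The deposited test was used as it stands, over all bins, and rows on autosomes were kept. SE was taken as the change divided by the normal quantile of its p-value, and bins with a p-value of 1 have none. Bins of separate tables were paired where they overlapped by at least 50% of each, and changes compared by a two-sided normal test with Benjamini-Hochberg adjustment over all pairs. In the alternative with the GC and CPM trend removed, the median change of all bins in each GC decile by CPM decile was subtracted, with FDR recomputed from the approximate SE. Position and repeat masking came from the GRCm38 genome and GENCODE M21, promoters from RefSeq. Bins were named as the called bins with the smallest FDR, up to 12 per direction with age, those with the smallest p in each MO comparison, up to 2 per direction, and the bin of highest CPM of the liver's main collagens. The collagen members and the gene lists were chosen with earlier results of these data known. Replicates are separate animals by their labels, and no batch is given. Scripts were tested on simulated data. Python 3.11.15, numpy 2.4.6, pandas 2.3.3, scipy 1.17.1 and matplotlib 3.10.9 were used.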

Additional observations from a re-analysis of the deposited data

How the results depend on the processing

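No paired analysis was possible because the tables hold 1 change per bin and comparison and no value per library, and leaving out replicates was not run for the same reason. With 4 animals a group, the number of collagen calls moved with the settings, and the matching counts over all bins are not given here. The count of 10 called with age in females became 3 at an FDR of 0.01, 20 at 0.1, 4 among bins above the median CPM, 2 with the GC and CPM trend removed and 1 among peaks of a single bin. The count of 21 in males became 3, 39, 9, 7 and 5 under the same settings, and 5 of the 7 were among the 21. For MO, at a p under 0.01, the counts were 12 in 3-week females, 18 in 3-week males, 14 in 8-week females and 3 in 8-week males, and at a p under 0.0001 they were 0, 0, 1 and 0. Above the median CPM they were 0 in 3-week females, 2 in 3-week males and 0 in 8-week males, and with the GC and CPM trend removed 3 in 3-week females. For the differences of changes, 1 collagen pair in each sex had an unadjusted p under 0.001 between MO at 8 and 3 weeks, against 0 at the adjusted threshold. Of 50 alternative values, 26 were within 1.5 times the main count and 24 were not, and the cause was not tested. Counting bins by position inside a collagen gene body instead of by symbol, an alternative chosen after the data were seen, gave 9 of 337 called in females and 14 of 441 in males.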

Other observations

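The X-linked basement membrane genes Col4a5 and Col4a6, which lie outside the autosomal set, had bins in the females' tables only. With age in control females their 11 bins had a median log2 change of 0.36, from -1.40 to 0.75, and 1 passed an FDR of 0.05 (9.09%). Over all 6366 bins of the X chromosome in that comparison the median was 0.37 and 14.2% passed, so the Col4a5 and Col4a6 values lie near those of their chromosome. With MO the 11 bins at 3 weeks and 14 at 8 weeks held 0 with an unadjusted p under 0.001 by edgeR. The males' tables list 0 bins at these genes, and no comparison between the sexes was made.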
